A study of Mus musculus with 32 samples.

Results

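The silencing of Nfe2l1 in cholesterol-loaded adipocytes was examined in 8 of the 32 libraries of the series, chosen by their labels: 4 libraries of cells given siNfe2l1 and 4 of cells given a scrambled siRNA. The cells were primary white adipocytes, the fat-storing cell type, made from subcutaneous fat of mice and kept in DMEM F-12 with 10% serum. All 8 cultures had 400 µM cholesterol on methyl-β-cyclodextrin, a sugar ring that carries sterols to membranes, for 6 h. The labels give the genotype of the siNfe2l1 cells as Nfe2l1 knockdown and that of the scramble cells as WT. Poly(A) RNA was sequenced, and the deposited values are raw read counts per gene. The other 24 libraries crossed the same pair of siRNAs with control treatment, or used siRNA to Atf3, and of these 4 siNfe2l1 and 4 scramble libraries with control treatment were used for comparison. The labels name biological replicates but not whether these came from separate animals or cultures, so each p-value measures the spread between these libraries.

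Nfe2l1 (also called Nrf1 or TCF11) encodes a transcription factor of the cap'n'collar family that is made as a membrane protein of the endoplasmic reticulum. It is normally pulled out of the membrane by the ATPase p97 and degraded by the proteasome. When proteasomes cannot keep up, it is cut by the protease DDI2, enters the nucleus and, paired with a small Maf protein, turns on the genes of proteasome subunits. In brown fat it is known to keep protein degradation in step with heat production, and in liver its protein has been described as a sensor of cholesterol in the endoplasmic reticulum.

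Nfe2l1 itself checks the labels. Its mRNA (ENSMUSG00000038615, GRCm39 chromosome 11, 96708240 to 96720794, minus strand) was at 123, 121, 106 and 91.2 CPM in the siNfe2l1 libraries, against 737, 755, 807 and 715 CPM in the scramble libraries. CPM scales the count of a gene to the size of its library, here adjusted by the TMM method. The groups were far apart, and 14.6% of the scramble mean was left with siNfe2l1. The difference passed edgeR's quasi-likelihood test with Benjamini-Hochberg adjustment over all genes tested, the test used for every adjusted p below (log2 fold change -2.77 ± 0.10, adjusted p = 3.62e-08; the value after ± is the standard error). An adjusted p under 0.05 is a call. The 20 adipocyte markers, among them Fabp4 and Adipoq, were all expressed above the filter on low counts. Adipoq, which encodes adiponectin, was at 893, 835, 912 and 944 CPM with siNfe2l1, against 967, 903, 912 and 929 CPM with scramble, and the groups overlapped (-0.05 ± 0.06, adjusted p = 0.667).

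The 4 siNfe2l1 libraries held 27024887 to 27437293 counts and the 4 scramble libraries 24106078 to 26012849. No pair of libraries within a group was a copy: over 12 pairs, chi-square per degree of freedom was 4.66 to 44.7. On the first principal component (43.0% of the variance of the 1000 most variable genes), the siNfe2l1 libraries lay at -4.39, 7.79, 16.6 and 20.1 and the scramble libraries at -19.7, -6.05, -11.5 and -2.83, so that siNfe2l1 library 1 fell within the range of the scramble group. The median gene had an SD of 0.154 (log2 CPM) over the siNfe2l1 and 0.161 over the scramble libraries with cholesterol, against 0.123 for siNfe2l1 and 0.0903 for scramble with control treatment. The comparison was therefore fitted on the 8 cholesterol libraries alone.

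Of 15399 genes tested, 342 were called higher with siNfe2l1 (2.22%) and 303 lower (1.97%), 4.19% in either direction. Most calls were small: 410 of the 645 were under 1.5-fold, and 60 passed 2-fold, 55 of them higher and 5 lower. Of the 342 genes called higher, 29 belonged to the lists of macrophage markers or interferon response genes. Of the 303 called lower, 35 belonged to the lists of proteasome subunits, proteasome assembly chaperones or p97 and its cofactors. All lists together, 43 in number with 591 genes, took in 41 of the genes called higher and 52 of those called lower, so most calls lay outside them.

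The proteasome degrades proteins that carry ubiquitin. Its barrel-shaped core has 4 stacked rings of alpha and beta subunits, the beta subunits carry the cutting sites, and a regulatory cap with 6 ATPases and a set of non-ATPases takes up and unfolds the substrate. All 33 genes of the constitutive proteasome were tested, 28 were called lower with siNfe2l1 and 0 higher, where 1.97% of all genes were called lower. Their log2 fold changes ran from -0.64 to -0.18 with a median of -0.46, against 0.00 over all genes tested. The groups did not overlap for 31 of the 33, where 6.5% of all genes were lower without overlap. The summed level of the 33 genes was 3280.5, 3007, 3093 and 3266 CPM in the siNfe2l1 libraries and 4783, 4144, 4116 and 4321 CPM in the scramble libraries, a change of -27.2%.

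**Figure D1:**
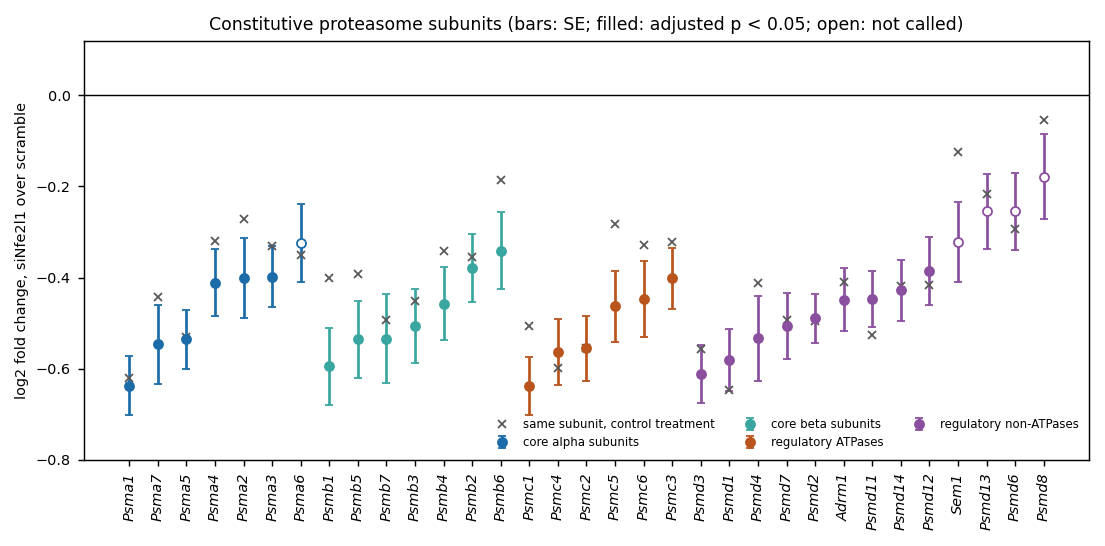
Log2 fold change (siNfe2l1 over scramble, cholesterol) of the 33 constitutive proteasome subunits by sub-complex, with standard errors as bars. Filled circles mark the 28 subunits called lower, open circles the other 5, and crosses the same subunit in the 8 libraries with control treatment; all 33 circles lie between -0.64 and -0.18.

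Among the alpha subunits, which form the outer rings and the gate of the core, 6 of 7 were called lower. Psma1 was at 176, 166, 169 and 174 CPM in the siNfe2l1 libraries, against 286, 265, 246 and 268 CPM in the scramble libraries. The lowest scramble library thus lay well above the highest siNfe2l1 library (log2 fold change -0.64 ± 0.06, adjusted p = 0.000467). Psma5 (-0.54 ± 0.06, adjusted p = 0.000966) and Psma7 (-0.55 ± 0.09, adjusted p = 0.00598) were the next by adjusted p. Psma6 was not called, at 124, 109, 118 and 134 CPM with siNfe2l1, against 172, 141, 139.7 and 155 CPM with scramble, although its groups did not overlap (-0.32 ± 0.09, adjusted p = 0.0566).

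All 7 beta subunits were called lower. Psmb5, which carries the chymotrypsin-like site that proteasome inhibitor drugs block, was at 94.1, 86.4, 91.4 and 93.6 CPM in the siNfe2l1 libraries, against 156, 126, 118 and 129.6 CPM in the scramble libraries. Scramble library 1 was the highest and the siNfe2l1 libraries lay close together (log2 fold change -0.54 ± 0.08, adjusted p = 0.00598). Psmb1 was at 86.2, 73.2, 77.8 and 86.9 CPM with siNfe2l1, against 140.3, 112, 117 and 119.6 CPM with scramble (-0.59 ± 0.09, adjusted p = 0.00304). Psmb3 fell by a like amount (-0.51 ± 0.08, adjusted p = 0.00624). Psmb6, which carries the caspase-like site, showed the smallest change of the 7 (-0.34 ± 0.08, adjusted p = 0.0439). Per kilobase of gene length, Psmb5 had the highest level of the 33 genes with siNfe2l1 (101.6 CPM per kb, against 147 with scramble) and Psmd1 the lowest (13.0 against 19.4).

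In the regulatory cap all 6 ATPases and 9 of 13 non-ATPases were called lower. The ATPase gene Psmc1 was at 85.1, 87.6, 86.04 and 91.00 CPM in the siNfe2l1 libraries, against 148, 131, 133 and 132 CPM in the scramble libraries. The siNfe2l1 libraries spanned few CPM and every one lay below every scramble library (log2 fold change -0.64 ± 0.06, adjusted p = 0.000467). Psmc4 (-0.56 ± 0.07, adjusted p = 0.00154) and Psmc2 (-0.56 ± 0.07, adjusted p = 0.00164) were also lower. Psmd1 (ENSMUSG00000026229, GRCm39 chromosome 1, 85992109 to 86066873, plus strand), a scaffold of the base of the cap, was at 89.7, 90.97, 93.8 and 102 CPM in the siNfe2l1 libraries, against 130.1, 145, 141 and 147 CPM in the scramble libraries (log2 fold change -0.58 ± 0.07, adjusted p = 0.000889). Psmd2, its partner scaffold, varied little within either group, at 227, 219, 222 and 224 CPM with siNfe2l1, against 315, 312, 312 and 313 CPM with scramble (-0.49 ± 0.05, adjusted p = 0.000722). Psmd3, of the lid, fell by more (-0.61 ± 0.06, adjusted p = 0.00049).

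The 4 non-ATPases without a call were Sem1 (-0.32 ± 0.09, adjusted p = 0.0621), Psmd13 (-0.25 ± 0.08, adjusted p = 0.103), Psmd6 (-0.25 ± 0.08, adjusted p = 0.112) and Psmd8 (-0.18 ± 0.09, adjusted p = 0.287). Psmd6 and Psmd8 were the 2 subunits whose groups overlapped. When the spread was estimated over all 8 groups of the study, 32 of the 33 were called lower, where 8.59% of all genes were. Without siNfe2l1 libraries 3 and 4 together, 11 were called lower, where 44 genes in all were.

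A CNC factor paired with a small Maf protein is known to bind the antioxidant response element, whose core was searched as TGACNNNGC on both strands of 300-base RefSeq promoter windows (GRCm38.p6, 250 bases before to 50 after the gene start). Of the 33 subunit genes, 27 had a window and 6 of these (22.2%) held a match, as did 16.9% of all genes tested that had a window and 12.4% of all 32851 windows. Of genes with a window, 16.5% of those called lower and 15.6% of those called higher held a match. None of the 7 alpha subunit genes had a match, though 6 of them were called lower. The stretches below show the matches upstream of the gene start for 5 subunits, and for Vcp, called lower, of the p97 list (4 of 8 genes held a match). Each is written 5′ to 3′ on the gene's strand with the match in capitals. The stretches are at chr14:54618004-54618072 (Psmb5, minus strand), chr11:70525318-70525356 (Psmb6, plus), chr14:45329574-45329635 (Psmc6, plus), chr2:180171396-180171464 (Adrm1, plus), chr11:107479278-107479319 (Psmd12, plus) and chr4:43000583-43000651 (Vcp, minus), all in GRCm38.p6.
Psmb5: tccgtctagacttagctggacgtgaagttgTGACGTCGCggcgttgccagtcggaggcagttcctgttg
Psmb6: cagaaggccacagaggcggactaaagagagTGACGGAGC
Psmc6: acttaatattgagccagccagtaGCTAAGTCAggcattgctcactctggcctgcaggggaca
Adrm1: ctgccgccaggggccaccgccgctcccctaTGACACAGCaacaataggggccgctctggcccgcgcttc
Psmd12: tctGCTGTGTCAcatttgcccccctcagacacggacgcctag
Vcp: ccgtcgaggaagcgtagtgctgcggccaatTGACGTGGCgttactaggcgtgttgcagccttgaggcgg
In Psmb5, Psmb6, Adrm1 and Vcp the match read in the direction of the gene, starting 47, 9, 162 and 114 bases before its start. In Psmc6 and Psmd12 it lay on the other strand, at 227 and 247 bases. Of these 6 genes, all called lower, Psmc6 changed by -0.45 ± 0.08, adjusted p = 0.0141, Adrm1, the ubiquitin receptor of the cap, by -0.45 ± 0.07, adjusted p = 0.00542, and Psmd12 by -0.39 ± 0.08, adjusted p = 0.0161. Matches also stood upstream in 2 genes that were not called, the p97 cofactor gene Ubxn4, at 38 bases (-0.24 ± 0.07, adjusted p = 0.061), and the assembly chaperone gene Psmd9, at 31 bases (0.08 ± 0.10, adjusted p = 0.71), and past the gene start in Plaa, which was called lower, and in Sem1 and Faf2, which were not. The matches describe these letters in these windows only.

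The factors that work beside the proteasome divided. Of p97 and its cofactors, which pull ubiquitin-marked proteins out of membranes and complexes, 4 of 8 were called lower and 7 of 8 were lower without overlap, where 1.97% and 6.5% of all genes were. Vcp, which encodes p97, was at 250.1, 260.1, 244 and 257 CPM in the siNfe2l1 libraries, against 366, 348, 334 and 377 CPM in the scramble libraries (log2 fold change -0.49 ± 0.06, adjusted p = 0.00152). Its cofactor Nploc4 was at 109, 109, 113 and 106 CPM with siNfe2l1, against 153, 149.8, 159 and 152 CPM with scramble (-0.49 ± 0.06, adjusted p = 0.000889). Nsfl1c (-0.39 ± 0.08, adjusted p = 0.0159) and Plaa (-0.27 ± 0.06, adjusted p = 0.028) were the other 2 called. Without siNfe2l1 library 3, where 84 genes in all were called lower, the count of 4 was 2. Neither Nsfl1c (-0.43 to -0.33 over the leave-one-out fits) nor Plaa was then called. Without any 1 of scramble libraries 2, 3 and 4 or siNfe2l1 libraries 2 and 4 the count was 3, with Plaa not called. In those fits 112 to 182 genes in all were called lower. With all 8 groups in the fit the count was 7, where 8.59% of all genes were called lower. The 4 without a call included Faf2, at 91.98, 88.3, 92.5 and 95.8 CPM with siNfe2l1, against 88.4, 90.3, 91.9 and 94.4 CPM with scramble.

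Among the genes for assembly of the proteasome, 2 of 8 tested were called lower, where 1.97% of all genes were. Pomp, which guides the assembly of the core, was at 54.1, 53.5, 56.9 and 65.02 CPM in the siNfe2l1 libraries, against 94.3, 76.4, 75.4 and 82.7 CPM in the scramble libraries (log2 fold change -0.52 ± 0.09, adjusted p = 0.00896). Psmg3 was lower at a level of a few CPM, and its call was lost without any 1 of 6 libraries (-0.55 ± 0.13, adjusted p = 0.0307; -0.63 to -0.46 over the leave-one-out fits). The inducible subunits of the immunoproteasome did not share the change: Psmb8 was at 92.3, 89.8, 84.2 and 87.1 CPM with siNfe2l1, against 95.6, 82.4, 87.2 and 86.03 CPM with scramble (0.01 ± 0.07, adjusted p = 0.951). In that list of 8, which also holds the activators of the core, only Psme2 was called (-0.30 ± 0.06, adjusted p = 0.023), and not without any 1 of 4 libraries (-0.35 to -0.28). The deubiquitinase gene Usp14, whose product docks on the cap, was the 1 call of 9 in its list (-0.30 ± 0.07, adjusted p = 0.0334), lost without any 1 of 5 libraries (-0.36 to -0.28).

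None of the 8 genes for the processing and turnover of the NFE2L1 protein was called. Ddi2 was at 92.2, 108, 112 and 103 CPM in the siNfe2l1 libraries, against 81.3, 111, 108 and 109.6 CPM in the scramble libraries, and the groups overlapped (log2 fold change 0.02 ± 0.10, adjusted p = 0.936). Ngly1, whose product removes sugar chains from NFE2L1, was lower without overlap but not called (-0.21 ± 0.07, adjusted p = 0.106). None of 8 CNC and small Maf genes was called either. Nfe2l2, the best known relative of Nfe2l1 and the main regulator of antioxidant genes, was at 251, 216, 196 and 190.1 CPM with siNfe2l1, against 266, 229, 248 and 218 CPM with scramble (-0.17 ± 0.09, adjusted p = 0.308). Of its 19 antioxidant target genes tested, only Nqo1 was called, and higher, where 2.22% of all genes were. Nqo1 was at 27.7, 28.8, 31.9 and 35.5 CPM with siNfe2l1, against 22.97, 22.7, 21.8 and 24.1 CPM with scramble (0.44 ± 0.09, adjusted p = 0.0172). Its call was lost without any 1 of 3 libraries (0.37 to 0.49).

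Markers of macrophages, immune cells that live among adipocytes in fat, rose together. Of 20 tested, 17 were called higher and 0 lower, where 2.22% of all genes were called higher, and 18 were higher without overlap, where 6.77% of all genes were. Their median log2 fold change was 0.90. Laptm5, a lysosomal membrane protein of blood cells, was at 23.02, 22.6, 24.8 and 25.6 CPM in the siNfe2l1 libraries, against 13.8, 13.6, 14.7 and 14.5 CPM in the scramble libraries (log2 fold change 0.76 ± 0.07, adjusted p = 0.000467). C1qa, a chain of complement C1q made mainly by macrophages, was at 12.5, 10.2, 11.9 and 13.2 CPM with siNfe2l1, against 6.01, 5.21, 5.39 and 5.99 CPM with scramble (1.08 ± 0.11, adjusted p = 0.000467). C1qc followed at 16.7, 15.7, 17.98 and 18.8 CPM with siNfe2l1, against 10.3, 9.37, 9.67 and 10.3 CPM with scramble (0.80 ± 0.09, adjusted p = 0.000609). All 3 were higher in every siNfe2l1 library than in any scramble library.

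The macrophage genes were low throughout. Summed over the 20 genes, they reached 335, 356, 394 and 428 CPM with siNfe2l1 and 221, 198, 200.2 and 224 CPM with scramble, 79.5% more with siNfe2l1. The 3 without a call were Cd163 (1.49 ± 0.43, adjusted p = 0.0773), Mertk (0.08 ± 0.08, adjusted p = 0.578) and Cd14, which was at 8.39, 6.26, 4.83 and 5.47 CPM with siNfe2l1, against 8.54, 5.56, 6.18 and 4.67 CPM with scramble (0.00 ± 0.20, adjusted p = 0.998). More cells of this type and more of these mRNAs per cell cannot be told apart in bulk RNA. Markers of other blood cells were too low to compare. Of 13 lymphocyte and neutrophil markers, 11 had 0 to 20 counts over the 4 libraries of either group, with Cd3g, Cd8a and S100a9 at 0 in all 8. The 2 tested were not called: Csf3r, at means of 0.51 CPM with siNfe2l1 and 0.26 with scramble (0.97 ± 0.51, adjusted p = 0.293), and S100a8 (-0.27). Without siNfe2l1 libraries 3 and 4, 11 macrophage markers were called higher, where 49 genes in all were.

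Within the lysosome list 2 of 18 were called, both higher, where 2.22% of all genes were called higher. Ctss, a cathepsin of antigen-presenting cells, was at 51.2, 54.6, 61.2 and 68.6 CPM with siNfe2l1, against 33.3, 30.03, 29.2 and 31.3 CPM with scramble (0.93 ± 0.09, adjusted p = 0.000467). Atp6v0d2, a proton pump subunit of macrophages and osteoclasts, was at 19.7, 20.5, 19.5 and 22.4 CPM with siNfe2l1, against 16.1, 12.5, 13.7 and 14.4 CPM with scramble (0.53 ± 0.09, adjusted p = 0.00896). The other 16 gave no call. With all 8 groups in the fit 5 of the 18 were called higher, where 11.3% of all genes were, and with control treatment 10 of 18, where 4.21% of all genes were.

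**Figure D2:**
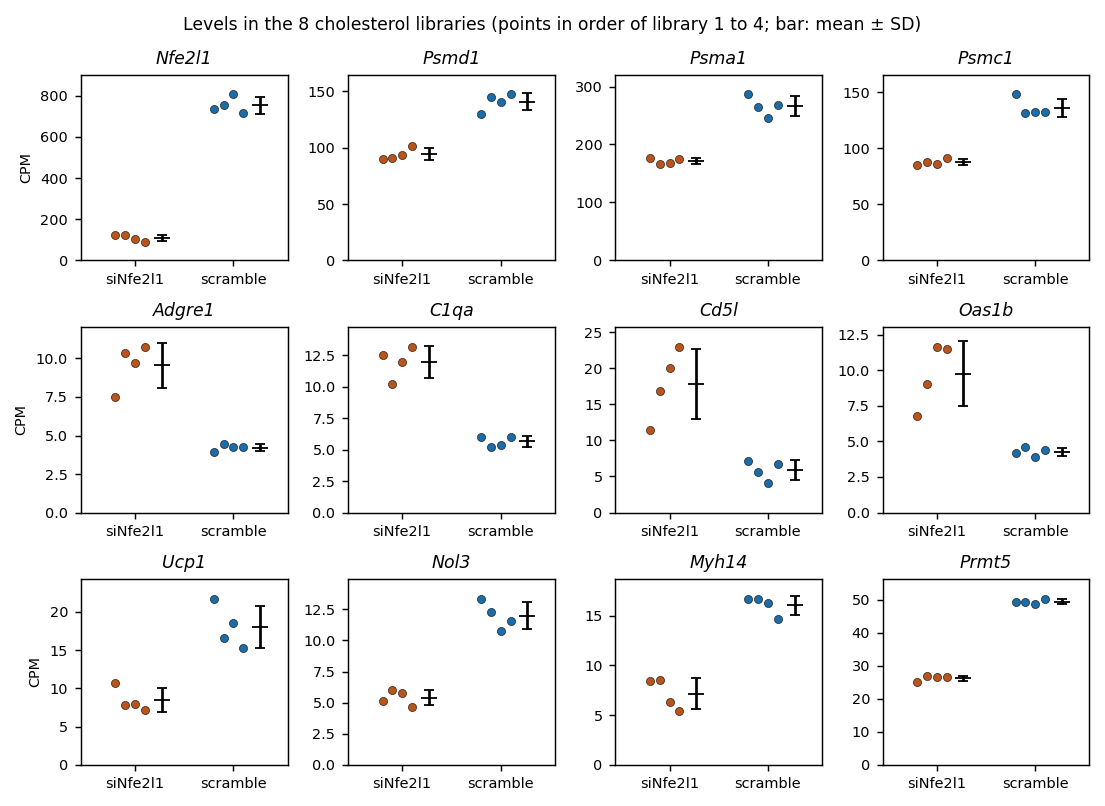
CPM of 12 genes in each of the 8 cholesterol libraries, siNfe2l1 left and scramble right, with points in order of library number and mean ± SD as bars. In all 12 genes the groups do not overlap; Nfe2l1 was at 91.2 to 123 CPM with siNfe2l1 and at 715 to 807 CPM with scramble.

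Interferon response genes, which cells switch on against viruses, were the other raised group: 12 of 22 were called higher and 0 lower, where 2.22% of all genes were called higher, with a median log2 fold change of 0.49. Oasl2, of the oligoadenylate synthetase-like family, was at 57.5, 70.3, 70.4 and 77.3 CPM in the siNfe2l1 libraries, against 35.1, 37.2, 44.3 and 40.2 CPM in the scramble libraries (log2 fold change 0.81 ± 0.10, adjusted p = 0.00106). Ifit2 was at 34.6, 39.8, 36.4 and 36.1 CPM with siNfe2l1, against 24.2, 28.8, 28.6 and 24.9 CPM with scramble (0.46 ± 0.08, adjusted p = 0.00948). Ifit3 spanned more, 109, 131, 172 and 179.9 CPM with siNfe2l1, against 83.6, 85.96, 81.4 and 89.8 CPM with scramble (0.80 ± 0.14, adjusted p = 0.013). In each of the 3 genes siNfe2l1 library 1 was the lowest of its group, and still above every scramble library. The adjusted p of Ifit2 was 0.0897 with 4 groups in the fit and 0.0821 without siNfe2l1 libraries 3 and 4. That of Ifit3 was 0.0627 without scramble library 1 (0.69 to 0.92 over the leave-one-out fits).

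The highest fold change of the list belonged to Mx1, a GTPase that blocks viruses, which was not called: 5.09, 8.89, 16.7 and 12.2 CPM with siNfe2l1, against 2.45, 5.06, 3.21 and 4.37 CPM with scramble (1.504 ± 0.37, adjusted p = 0.0567). Irf9, a subunit of the factor that carries the type I interferon signal, was called (0.57 ± 0.11, adjusted p = 0.0194), while Stat2, another subunit of that factor, was not (0.83 ± 0.22, adjusted p = 0.0732). Irf7 was at 323, 309, 286 and 282 CPM with siNfe2l1, against 353, 276, 309 and 296 CPM with scramble (-0.04 ± 0.08, adjusted p = 0.81). The count depended on the libraries in the fit. It was 6 without scramble library 2, 6 without scramble library 3 and 5 without siNfe2l1 library 2. Without siNfe2l1 library 3 it was 3, and without siNfe2l1 libraries 3 and 4 together 2. All genes called higher fell too, from 342 to 120, 123, 150, 95 and 49 in these fits, in the same order. The mean log2 level of the 22 genes, relative to the scramble mean, was 0.24, 0.46, 0.59 and 0.64 in siNfe2l1 libraries 1 to 4 and -0.04, 0.02, -0.02 and 0.04 in scramble libraries 1 to 4. The same libraries differed in stress genes: the integrated stress response list was at 0.09, -0.20, -0.44 and -0.61 with siNfe2l1 and at 0.22, -0.13, 0.05 and -0.13 with scramble. The part of that spread in the interferon result was not tested. Macrophage markers were higher in the same 4 siNfe2l1 libraries, at the summed levels given above, and their part in the interferon result was not tested either.

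In the list of cholesterol synthesis and uptake, 6 of 25 were called lower and 1 higher, where 1.97% and 2.22% of all genes were, with a median log2 fold change of -0.17. Of those called lower, Hsd17b7 was at 88.6, 78.6, 71.5 and 68.9 CPM with siNfe2l1, against 104, 104, 112 and 96.03 CPM with scramble (-0.43 ± 0.09, adjusted p = 0.0169) and Mvd, of the mevalonate pathway, at 24.00, 21.3, 16.9 and 16.1 CPM with siNfe2l1, against 32.8, 28.5, 30.3 and 26.6 CPM with scramble (-0.59 ± 0.12, adjusted p = 0.0218). Nsdhl (-0.28 ± 0.06, adjusted p = 0.0247), Pmvk (-0.39 ± 0.09, adjusted p = 0.0318) and Mvk (-0.32 ± 0.08, adjusted p = 0.0433) were also lower.

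Srebf2, the master regulator of the sterol pathway, was not among the calls, at 98.8, 93.1, 94.1 and 90.4 CPM with siNfe2l1, against 91.4, 84.9, 94.7 and 84.4 CPM with scramble (0.08 ± 0.06, adjusted p = 0.476). The count of 6 lower was 0 without scramble library 2, without scramble library 3 or without siNfe2l1 library 3. It was 1 without siNfe2l1 library 2 or 4, 2 without scramble library 4, and 3 with library totals as scaling. All genes called lower fell too, from 303 to 125, 135, 84, 112, 182, 146 and 193 in these fits, in the same order. Hsd17b7 lost its call without any 1 of 4 libraries (-0.51 to -0.38 over the leave-one-out fits) and Mvd without any 1 of 5 (-0.70 to -0.51).

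Of 15 LXR targets and sterol efflux genes, which cells raise when sterols are in excess, none was called at an adjusted p under 0.05. Abca1, the pump that loads cholesterol onto apolipoproteins, was at 819, 1025, 1044 and 913 CPM with siNfe2l1, against 573, 957, 991 and 869 CPM with scramble, with scramble library 1 lowest and the groups overlapping (0.16 ± 0.16, adjusted p = 0.578). Pltp had the smallest p of the list, 145, 136, 132 and 122 CPM with siNfe2l1, against 117, 112, 114 and 101 CPM with scramble (0.27 ± 0.07, adjusted p = 0.0596). Srebf1 spread widely over the siNfe2l1 libraries, 498, 628, 855 and 817 CPM with siNfe2l1, against 420.5, 519, 419.6 and 539.7 CPM with scramble (0.56 ± 0.17, adjusted p = 0.0938). None of 14 genes of fatty acid synthesis was called. In the list of lipid droplets and lipolysis 1 of 17 was called, and lower, where 1.97% of all genes were. This was Dgat1, which makes triglyceride, at 217, 199.98, 188 and 168 CPM with siNfe2l1, against 277, 256, 262 and 243 CPM with scramble (-0.43 ± 0.08, adjusted p = 0.0152). Its call was lost without scramble library 3 or siNfe2l1 library 3 (-0.49 to -0.36).

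Adipocyte identity genes gave no call among 20. Fabp4, a fatty acid carrier and the most abundant of those named here, was at 5553, 5303, 5264 and 5760.3 CPM in the siNfe2l1 libraries, against 7625, 6421, 6134 and 6432 CPM in the scramble libraries, without overlap (log2 fold change -0.28 ± 0.07, adjusted p = 0.0549). Lep, the gene of the hormone leptin, was at 4.45, 5.42, 7.25 and 11.2 CPM with siNfe2l1, against 3.05, 3.34, 3.84 and 4.404 CPM with scramble (0.95 ± 0.27, adjusted p = 0.075). Of 14 genes of insulin signalling none was called, and the glucose carrier Slc2a1 was at 1077, 786, 553 and 425 CPM with siNfe2l1, against 1395, 1102, 1388 and 999 CPM with scramble (-0.78 ± 0.27, adjusted p = 0.149).

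Of 13 thermogenic genes, 2 were called lower, where 1.97% of all genes were. Ucp1, the uncoupling protein of brown and beige fat, was at 10.7, 7.81, 7.99 and 7.17 CPM in the siNfe2l1 libraries, against 21.7, 16.6, 18.5 and 15.3 CPM in the scramble libraries. No siNfe2l1 library reached the lowest scramble library (log2 fold change -1.10 ± 0.14, adjusted p = 0.00164). Cox7a1, a muscle and brown fat form of a respiratory chain subunit, was at 66.4, 59.5, 61.6 and 66.2 CPM with siNfe2l1, against 90.8, 77.2, 77.2 and 77.7 CPM with scramble (-0.35 ± 0.07, adjusted p = 0.0222), a call lost without any 1 of 4 libraries (-0.37 to -0.29). Prdm16, a regulator of brown fat genes, was higher in every siNfe2l1 library, at 16.5, 19.96, 21.4 and 16.8 CPM with siNfe2l1, against 10.00, 15.3, 13.9 and 14.9 CPM with scramble, but not called (0.46 ± 0.13, adjusted p = 0.0804).

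Nuclear genes of the respiratory chain all had negative log2 fold changes (21 of 21, -0.42 to -0.14, median -0.23), and 18 were lower without overlap, where 6.5% of all genes were. Only 2 were called, where 1.97% of all genes were called lower, among them Cox5b, at 193, 166, 172 and 174 CPM with siNfe2l1, against 259.8, 222, 238 and 221 CPM with scramble (-0.42 ± 0.07, adjusted p = 0.0106). With all 8 groups in the fit 19 were called, where 8.59% of all genes were called lower. The DESeq2 Wald test called 14, where 620 genes in all were called lower. Without siNfe2l1 library 3 none was, where 84 genes in all were called lower. The count was 1 without any 1 of scramble libraries 2, 3 and 4 or siNfe2l1 libraries 2 and 4. In those fits 112 to 182 genes in all were called lower. The count was 8 without siNfe2l1 library 1, where 796 genes in all were called lower. The 13 mitochondrially encoded mRNAs gave no call. In glycolysis 9 of 14 genes were lower without overlap, again beside 6.5% of all genes, and 2 were called, Gpi1 (-0.33 ± 0.07, adjusted p = 0.0205), lost without any 1 of 4 libraries (-0.36 to -0.28), and Tpi1 (-0.24 ± 0.06, adjusted p = 0.0439), lost without any 1 of 6 (-0.26 to -0.21).

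Stress genes spread widely within both groups. Of 22 genes of the integrated stress response none was called, with a median of -0.28. Atf3, the stress-induced factor that the study pairs with Nfe2l1, was at 440.3, 264, 154 and 125 CPM in the siNfe2l1 libraries, against 514, 287, 407 and 262 CPM in the scramble libraries, with siNfe2l1 library 1 above 3 of the 4 scramble libraries (log2 fold change -0.58 ± 0.42, adjusted p = 0.464). Ddit3, a factor of the same response tied to cell death, was at 297, 214, 147 and 131 CPM with siNfe2l1, against 321, 218, 249 and 203 CPM with scramble (-0.33 ± 0.26, adjusted p = 0.507). Slc7a5, an amino acid carrier with the smallest p of the list, was lower without overlap (-0.40 ± 0.11, adjusted p = 0.0602). Without siNfe2l1 library 1, 7 of the 22 were called lower, where 796 genes in all were, against 303 in the main fit. The fit with all 8 groups gave 6, where 8.59% of all genes were called lower. Adding replicate number to the fit as a block gave 7, where 1123 genes in all were called lower.

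None of 18 cytosolic heat shock genes was called (median log2 fold change -0.21). Hspb8, a small chaperone that works with autophagy, was at 257, 195, 166 and 150.3 CPM with siNfe2l1, against 355, 284, 299 and 268 CPM with scramble (-0.65 ± 0.16, adjusted p = 0.0508). Without siNfe2l1 library 1, 7 of the 18 were called lower, where 796 genes in all were, against 303 in the main fit. The fit with all 8 groups gave 5, where 8.59% of all genes were called lower. Adding the replicate block gave 10, where 1123 genes in all were called lower. Relative to the scramble mean, the list stood at 0.06, -0.25, -0.42 and -0.42 (mean log2) in siNfe2l1 libraries 1 to 4 and at 0.24, -0.13, -0.01 and -0.09 in scramble libraries 1 to 4. Hmox1, which breaks down heme and responds to oxidative stress, was at 3746, 3198, 2961 and 2624 CPM with siNfe2l1, against 4315, 3709, 4078 and 3656 CPM with scramble (-0.33 ± 0.10, adjusted p = 0.09). Lists of 17 chaperones of the endoplasmic reticulum, 15 genes of its degradation pathway and 15 autophagy genes also held no call. Of the autophagy genes 14 had negative log2 fold changes (median -0.17). With all 8 groups in the fit 7 autophagy and 3 degradation genes were called lower, where 8.59% of all genes were. Of the chaperones 5 were then called higher, where 11.3% of all genes were, and 2 lower.

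**Figure D3:**
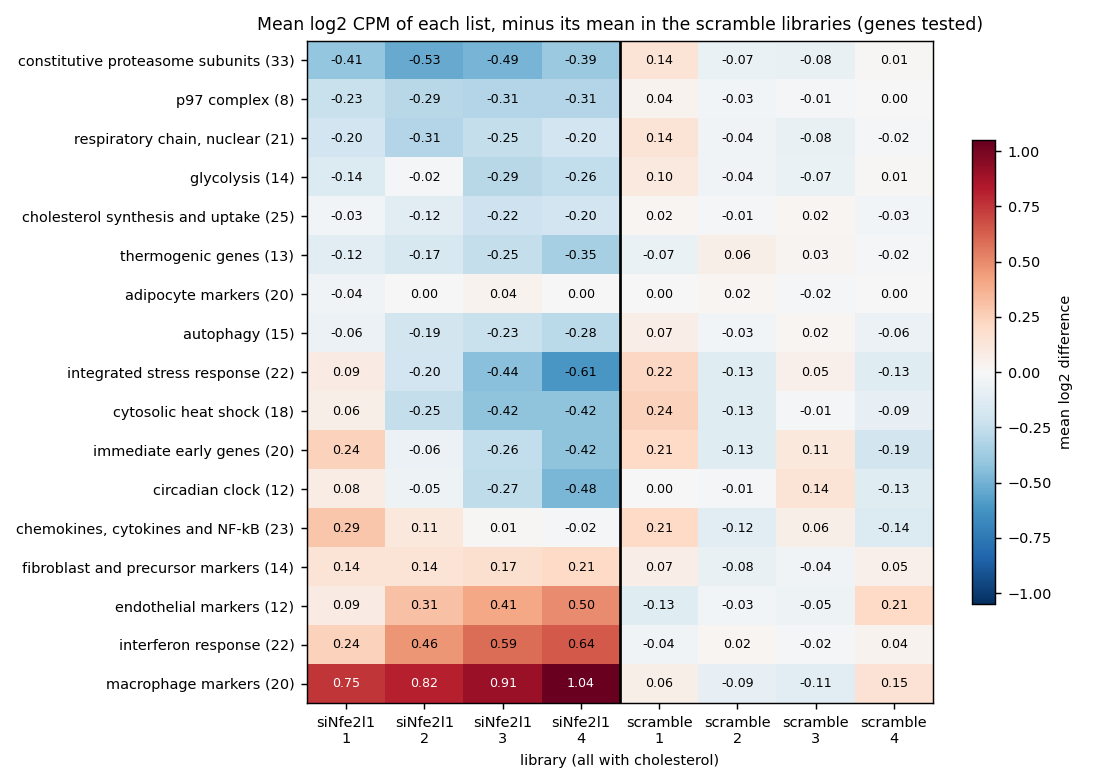
Mean log2 CPM of 17 gene lists in each library (siNfe2l1 left of the line, scramble right), minus the mean of the scramble libraries, with the number of genes tested in brackets. Proteasome subunits stood at -0.53 to -0.39 in the siNfe2l1 libraries and macrophage markers at 0.75 to 1.04, while the integrated stress response ran from 0.09 to -0.61 over the same libraries.

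Inflammatory genes mostly overlapped. Of 23 chemokine, cytokine and NF-kB genes tested, 1 was called, and higher, where 2.22% of all genes were. Without overlap 4 were higher, where 6.77% of all genes were, and 0 lower. With all 8 groups in the fit 7 were called higher, where 11.3% of all genes were, and on leaving out 1 library 1 to 3. The 1 call of the main fit was Lif, a cytokine of the interleukin 6 family, at 36.3, 37.1, 45.3 and 41.7 CPM in the siNfe2l1 libraries, against 24.98, 26.6, 26.3 and 23.7 CPM in the scramble libraries (log2 fold change 0.66 ± 0.08, adjusted p = 0.00154). Ccl2, which attracts monocytes, was at 232, 181, 153 and 182 CPM with siNfe2l1, against 241, 149, 190.03 and 153 CPM with scramble (0.03 ± 0.17, adjusted p = 0.937). Il6 was at 37.1, 27.4, 21.4 and 23.1 CPM with siNfe2l1, against 39.3, 25.2, 34.1 and 26.5 CPM with scramble (-0.20 ± 0.19, adjusted p = 0.582). Neither separated the groups. Among acute-phase genes 1 of 9 was called, and lower, where 1.97% of all genes were. This was Orm2 (-0.47 ± 0.11, adjusted p = 0.0379), a call lost without any 1 of 7 libraries (-0.53 to -0.41).

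Of other cell types, 3 of 14 fibroblast and precursor markers were called higher, where 2.22% of all genes were. Dpt, a matrix protein of fibroblasts, was at 61.8, 66.2, 77.02 and 88.03 CPM with siNfe2l1, against 49.7, 50.2, 45.2 and 51.2 CPM with scramble (0.58 ± 0.10, adjusted p = 0.0106), Col1a2 changed by 0.27 ± 0.06, adjusted p = 0.0281 and Ly6a, a marker of precursor cells, by 0.26 ± 0.06, adjusted p = 0.0361. The call of Dpt was lost without siNfe2l1 library 3 (0.48 to 0.65), and those of Col1a2 (0.24 to 0.29) and Ly6a (0.23 to 0.28) without any 1 of 6 libraries. Endothelial markers gave 0 calls of 12 and all 12 had positive log2 fold changes; their summed level was 511 to 614 CPM with siNfe2l1 and 453 to 548 CPM with scramble. Mcam was the 1 smooth muscle and pericyte marker called of 10 (0.30 ± 0.07, adjusted p = 0.0371), lost without any 1 of 7 libraries (0.27 to 0.35). Proliferation genes gave no call among 12.

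Among protein-coding genes called without overlap and with an average log2 CPM of 2 or more, the 8 highest log2 fold changes fell in genes of leukocytes and of the interferon response. Cd5l, a protein secreted by macrophages, was at 11.5, 16.8, 19.96 and 22.98 CPM in the siNfe2l1 libraries, against 7.13, 5.601, 4.08 and 6.76 CPM in the scramble libraries (log2 fold change 1.597 ± 0.23, adjusted p = 0.00598). Itgb2, the beta chain of leukocyte integrins, was at 9.06, 11.7, 15.5 and 15.6 CPM with siNfe2l1, against 5.75, 5.095, 4.83 and 6.18 CPM with scramble (1.247 ± 0.17, adjusted p = 0.00249). Adgre1, the macrophage surface protein F4/80, was at 7.49, 10.3, 9.698 and 10.8 CPM with siNfe2l1, against 3.91, 4.43, 4.24 and 4.25 CPM with scramble (1.18 ± 0.13, adjusted p = 0.000609). In all 3 the siNfe2l1 mean was over 2 times the scramble mean. C3ar1, the receptor of complement fragment C3a (1.14 ± 0.12, adjusted p = 0.000609), Ly9, a receptor of immune cells (1.124 ± 0.15, adjusted p = 0.00203), and Msr1, a scavenger receptor of macrophages (1.11 ± 0.21, adjusted p = 0.0146), followed.

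The other 2 of the 8 were interferon-induced. Oas1b was at 6.81, 9.04, 11.7 and 11.5 CPM in the siNfe2l1 libraries, against 4.21, 4.59, 3.92 and 4.37 CPM in the scramble libraries (log2 fold change 1.19 ± 0.16, adjusted p = 0.00235). Ifi203, of a family with near-identical members between which reads may be split, was at 29.7, 42.8, 50.3 and 59.4 CPM with siNfe2l1, against 17.9, 21.8, 21.9 and 23.5 CPM with scramble (1.10 ± 0.19, adjusted p = 0.0146). Both separated the groups. The calls of Msr1 (0.93 to 1.27) and Ifi203 (0.95 to 1.26) were each lost without any 1 of 3 libraries.

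Apart from Nfe2l1, the lowest fold changes under the same rule were spread over unrelated functions. Myh14, a nonmuscle myosin heavy chain, was at 8.42, 8.53, 6.32 and 5.37 CPM in the siNfe2l1 libraries, against 16.7, 16.7, 16.2 and 14.7 CPM in the scramble libraries (log2 fold change -1.17 ± 0.14, adjusted p = 0.000966). Nol3, an inhibitor of apoptosis, was at 5.17, 6.002, 5.75 and 4.66 CPM with siNfe2l1, against 13.4, 12.3, 10.8 and 11.6 CPM with scramble (-1.15 ± 0.11, adjusted p = 0.000467). Prmt5, which methylates arginine in histones and splicing proteins, was at 25.04, 26.8, 26.5 and 26.6 CPM with siNfe2l1, against 49.5, 49.5, 48.8 and 50.3 CPM with scramble. The 2 groups of Prmt5 were each tight, and its adjusted p was the lowest of the 16 genes apart from Nfe2l1 (-0.92 ± 0.06, adjusted p = 2.38e-05).

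Doc2b, a calcium sensor of vesicle release (-0.997 ± 0.21, adjusted p = 0.0233), and Phospho1, a phosphatase (-0.87 ± 0.17, adjusted p = 0.0184), were also lower, but their calls were lost without any 1 of 4 (-1.15 to -0.83) and 3 libraries (-1.04 to -0.72). Ccdc152 was at 4.53, 5.13, 5.04 and 5.33 CPM with siNfe2l1, against 8.16, 10.9, 9.47 and 10.4 CPM with scramble (-0.96 ± 0.11, adjusted p = 0.00102). It overlaps the abundant gene Selenop by 439 bases on the opposite strand, with 556 and 977 counts for Ccdc152 against 90208 and 101780 for Selenop in the siNfe2l1 and scramble libraries, and since the sources used here do not give the strand of counting, their reads cannot be told apart. Selenop itself was called lower by less (-0.32, adjusted p = 0.00948). Phospho1 also overlaps other genes, Zfp652 by 7642 bases on its own strand (4364 and 3381 counts in the siNfe2l1 and scramble libraries) and Abi3 by 2067 bases on the opposite strand (451 and 499). Nol3 overlaps 4931428F04Rik by 1531 bases on the opposite strand (336 and 295). None of these 3 overlapping genes was called, and how reads in the overlaps were assigned is not known.

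The same silencing was measured with control treatment in 8 other libraries, so the comparisons share none. There Nfe2l1 changed by -2.72 ± 0.07 and Psmd1 by -0.65 ± 0.04. With control treatment 659 genes were called higher (4.21%) and 621 lower (3.97%) of 15638 tested. Over 14940 genes tested in both, 345 were called in the same direction, 53.6% of the genes called with cholesterol and 27.2% of those called with control treatment, and 1 in opposite directions. Of the genes called lower, 187 were shared (61.7% and 30.2%), and of those called higher 158 (46.3% and 24.4%).

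Proteasome subunits were lower with control treatment too. There 31 of 33 were called lower, where 3.97% of all genes were, with a median of -0.41. Across the 33 subunits the log2 fold changes with cholesterol and with control treatment had a Pearson r of 0.838, against 0.391 over 14940 genes, as a description over genes that are not independent. The difference between the 2 effects was tested as an interaction of siRNA and cholesterol in the 16 libraries. In that fit the 4 groups shared a single spread per gene, although the cholesterol groups varied more, as given above. The difference lay between -0.19 and 0.08 for the 33 subunits, with 0 called and 0 with an unadjusted p under 0.05. Of 16322 genes, 2 were called positive (0.0123%) and none negative.

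Macrophage markers were raised with control treatment too, 16 of 20 called higher, where 4.21% of all genes were, with a median of 0.66. The interaction was called for none of the 20, and 2 had an unadjusted p under 0.05. Interferon response genes were not: 1 of 22 was called higher with control treatment and 0 lower, with a median of -0.01. Their interaction had a median of 0.48 and an unadjusted p under 0.05 in 14 of 22, where 1746 of the 16322 genes had one, but none of the 22 passed the adjusted test. Outside that list, Oas1b, picked above for its high fold change with cholesterol, changed by 0.00 ± 0.16 with control treatment (interaction 1.20, adjusted p = 0.196). Doc2b showed -0.04 ± 0.20 and Phospho1 -0.19 ± 0.11 there, against -0.997 and -0.87 with cholesterol, and neither difference was called.

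**Figure D4:**
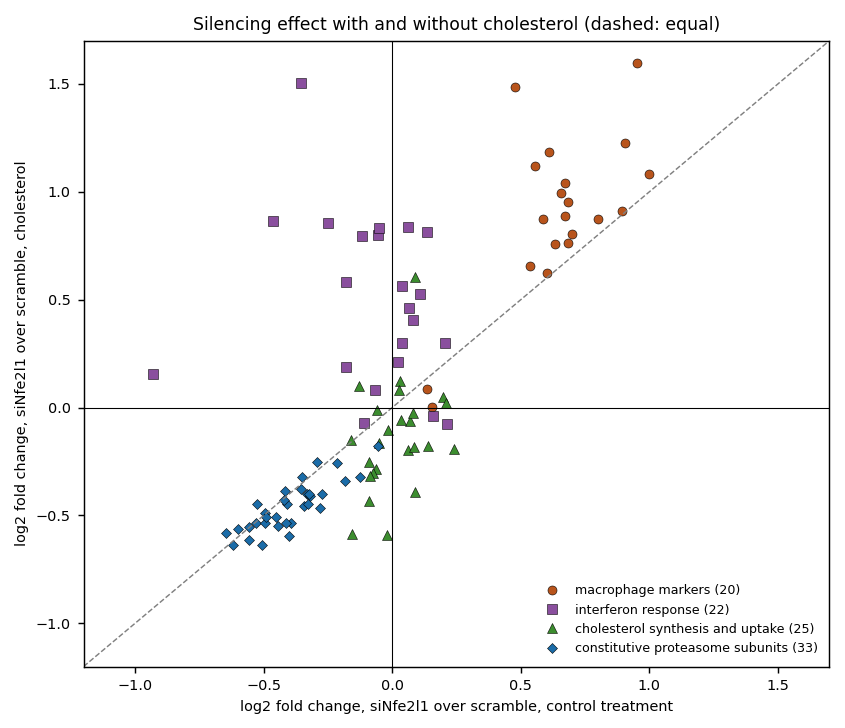
Log2 fold change of siNfe2l1 over scramble with cholesterol (vertical axis) against that with control treatment (horizontal axis) for 4 gene lists, each point a gene and the dashed line equal effects. Proteasome subunits (median -0.46 with cholesterol, -0.41 with control treatment) lie near the line, and interferon response genes (0.49 and -0.01) lie mostly above it.

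The 2 genes whose silencing effect differed by the adjusted test were Egr2 and Egr3, early response transcription factors that cells switch on within minutes of a stimulus. With cholesterol, Egr3 was at 7.43, 8.12, 10.9 and 11.96 CPM with siNfe2l1 and 5.54, 5.58, 5.75 and 5.53 CPM with scramble. With control treatment it was at 9.61, 8.45, 8.805 and 8.12 CPM with siNfe2l1 and 10.7, 10.7, 11.4 and 10.8 CPM with scramble. The groups did not overlap in either treatment, and the direction was opposite: higher with siNfe2l1 in cholesterol, lower with siNfe2l1 in control treatment (interaction 1.10 ± 0.17 on the log2 scale, adjusted p = 0.0357).

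Egr2 was at 28.5, 31.9, 37.6 and 35.4 CPM with siNfe2l1 and 18.97, 22.7, 20.3 and 25.04 CPM with scramble in cholesterol. With control treatment it was at 28.9, 28.3, 27.3 and 28.3 CPM with siNfe2l1 and 31.6, 30.1, 33.1 and 29.4 CPM with scramble, all 4 siNfe2l1 libraries below the scramble libraries but with no call there (-0.14 ± 0.05, adjusted p = 0.13; interaction 0.76 ± 0.12, adjusted p = 0.0357). The other 18 genes of the immediate early list of 20, their relative Egr1 among them, gave no interaction call. Both calls depend on most libraries. That of Egr2 was lost without any 1 of 14 libraries and that of Egr3 without any 1 of 13 of the 16. The interactions ran from 0.68 to 0.83 and from 0.97 to 1.20. The shared spread covers unequal groups. For siNfe2l1 and scramble, Egr2 had SDs of 3.99 and 2.69 CPM with cholesterol and 0.68 and 1.66 with control treatment. Those of Egr3 were 2.18 and 0.10, and 0.64 and 0.34. The adjusted p-values do not allow for this.

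**Figure D5:**
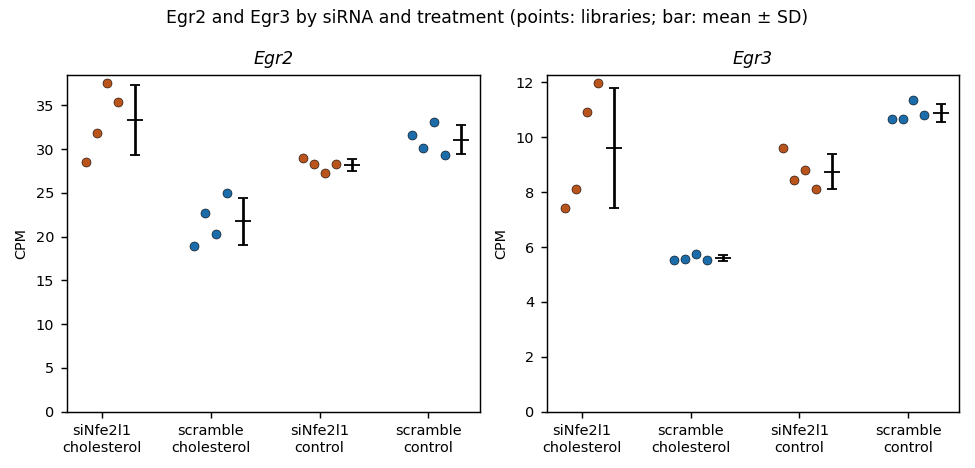
CPM of Egr2 and Egr3 by siRNA and treatment, with points for the 4 libraries of a group and mean ± SD as bars; within each treatment siNfe2l1 stands left of scramble. With cholesterol both genes were higher with siNfe2l1, and with control treatment all siNfe2l1 points lie below the scramble points.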

How the data were processed

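Per the submitters' processing notes, fastp, HISAT2 2.0.5 and featureCounts 1.5.0-p3 were used with build GRCm39 (mm39). The authors deposited raw read counts per gene for 56748 genes in 32 libraries, with no scaling. Strand setting, multi-mapping reads and whether control treatment held the carrier are not given in the sources used here. A C at the end of a column's siRNA name was taken to mean cholesterol.

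Counts were analysed with edgeR 4.0.16 in R 4.3.3 on the 8 cholesterol libraries (6 residual degrees of freedom): filterByExpr by group (minimum count 10, minimum total 15), TMM factors of 0.989 to 1.03 for siNfe2l1 and 0.967 to 0.997 for scramble, robust glmQLFit, glmQLFTest and Benjamini-Hochberg adjustment over 15399 genes, with calls at 0.05. Standard errors are the log2 fold change over the square root of F. CPM and log2 CPM (prior count 2) were computed from the deposited counts. The interaction was fitted on 16 libraries, with a single spread per gene shared by the 4 groups.

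The members and the 43 gene lists were chosen with earlier results of these data known, and no test was run over a list. Of 591 list genes, 8 were matched through an older symbol, 31 were not tested and 1 had no row. Named were Nfe2l1, Psmd1, 9 watched genes, in each list at most 3 called genes, those of lowest adjusted p (or, with none called, the 1 gene of lowest p), and the 8 highest and 8 lowest called protein-coding genes without overlap at an average log2 CPM of at least 2. Further list members with values, such as Mx1, Fabp4 and Prdm16, were chosen after their values were seen. Some genes that the rule names are not reported here.

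On data simulated from these libraries (15237 genes, 50 changed per size), 20% of the genes changed 1.25-fold were called, 78% of those changed 1.5-fold, 96% of those changed 2-fold and 100% of those changed 4-fold, and 11 of 158 calls were false. The changed genes were drawn only from genes above a minimum mean CPM, and noise was drawn independently for each gene and library. These rates therefore do not cover the lowest genes or shifts that many genes of a library share. Alternatives were DESeq2 1.42.0 size factors and Wald test, library totals, no filter, voom of limma 3.58.1 with and without sample weights, fits on 4 or 8 groups, a replicate block, and leaving out libraries. Promoter windows are from RefSeq (GRCm38.p6), and gene coordinates are those of the deposited table.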

Additional observations from a re-analysis of the deposited data

Results flagged for a closer look

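In 9 of 180 groups of 4 libraries examined over the named genes, 1 library stood apart from the other 3 by Dixon's criterion at 95%, which chance gives in about 1 of 20 groups. With siNfe2l1, library 4 was high for Psma5 (70.9 CPM, others 64.0 to 64.9), Usp14 (74.1, others 62.1 to 63.7) and Cdk1 (7.98, others 5.35 to 5.76). With scramble, library 1 was high for Psmc1 (148 CPM, others 131 to 133), Nsfl1c (100.7, others 85.0 to 87.2) and Cox7a1 (90.8, others 77.2 to 77.7), and low for Ddi2 (81.3, others 108 to 111). Scramble library 3 was low for Psme2 (75.1 CPM, others 83.9 to 84.5), and scramble library 4 for Bach2 (3.86, others 4.72 to 4.86). In Psma5 the library that stood apart lay toward the scramble group, and the groups still did not overlap. In Psmc1 and Nsfl1c it lay on the side away from the siNfe2l1 group, so it could not bring the groups to overlap.

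The effect of siNfe2l1 differed between cholesterol and control treatment, by the test of the interaction over all genes, for Egr2 (0.76 on the log2 scale) and Egr3 (1.10).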

How the results depend on the processing

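Direction held for all 63 named genes called, in each alternative run, and 35 kept their call whichever 1 of the 8 libraries was left out. Nfe2l1 stayed between -2.83 and -2.63 in log2 fold change. The number of calls moved far more. Genes called higher (342) and lower (303) were 554 and 528 with no filter, 679 and 620 by the DESeq2 Wald test, 988 and 926 by voom with sample weights, 1193 and 827 with 4 groups and 1923 and 1459 with 8 groups in the fit, and 49 and 44 without siNfe2l1 libraries 3 and 4. Library totals gave 482 and 193 (71.41% higher, against 53.02%). Leaving out 1 library gave 95 to 965 higher and 84 to 796 lower, the fewest without siNfe2l1 library 3 and the most without siNfe2l1 library 1. Proteasome subunits called lower (28) were 21 to 30 on leaving out 1 library, 11 without siNfe2l1 libraries 3 and 4, and 27 to 33 otherwise. The interaction (2 calls) gave 42 with 8 groups, 18 by voom with sample weights, 44 by the DESeq2 Wald test, 8 with no filter, 0 with library totals, and 0 to 333 on leaving out 1 library, the most without siNfe2l1 cholesterol library 1. The cause of these shifts was not tested.

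The labels do not say whether same-numbered libraries were paired, and the correlations do not settle it. Deviations of same-numbered libraries correlated at 0.33, 0.08, -0.06 and 0.30 for numbers 1 to 4. Those of different numbers correlated at -0.34 to 0.19. Of the siNfe2l1 libraries, 2 of 4 correlated best with their own number. The main fit treats the libraries as unpaired. With the replicate block 1228 genes were called higher and 1123 lower, 33 proteasome subunits were lower, as were 10 of 18 heat shock and 7 of 22 integrated stress response genes (0 of each without it), and the interaction had 0 calls. Totals of 24106078 to 27437293 counts leave genes near 1 CPM with few counts, and in simulated data the test missed most of the smallest changes.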
